A study of Drosophila melanogaster with 3 samples.

Results

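Nuclear genes for subunits of the oxidative phosphorylation complexes were described by the peaks of the forkhead transcription factor Jumeau near their start sites. The samples were 3 biological replicates of whole Drosophila melanogaster embryos aged 0 to 24 hours, with males and females pooled. All carried a jumu-GFP fusion gene, made by an eGFP exon within an intron of jumu (the jumu-MiMIC-GFP strain), and chromatin was precipitated with an anti-GFP antibody and sequenced (ChIP-seq). The authors made the peak lists from these libraries together with a control alignment common to all 3, not analysed here. With 1 group, how much of the remaining signal the antibody or open chromatin gives at promoters was not tested. Chromatin had been sonicated to a size range of 200 to 800 bp. The label of a whole organism could not be checked against cell markers in peak lists, and a peak does not say in which cells of the embryo it arose.

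Members were the protein-coding genes of the 6 main chromosome arms whose symbol begins with ND-, COX4 to COX8, ATPsyn, UQCR or SdhA to SdhD. The rule found 87 of 13945 protein-coding genes. They comprised 40 genes of complex I, 7 of complex II, 9 of complex III, 16 of complex IV and 15 of complex V. A summit within 1 kb of any annotated start site was given to the gene, and a gene with such an optimal summit is named as called. The dm6 optimal list of 3845 reproducible peaks and the relaxed pooled list of 29812 peaks were used. The authors' title for the pooled list is peaks and background, so a weak pooled peak may be background. The authors' −log10 q value is higher for better supported peaks. At members with an optimal peak it ran from 3.09 (SdhD) to 3.67 (ND-24). At members with a pooled peak alone it ran from 0.0246 (ND-51L2) to 2.28 (COX7C). The signal is the value of the authors' peak caller, in a unit that is not given in the sources used here. Depth is unknown. The optimal peaks were the pooled peaks with a signal of 112.0 or more, so a member without an optimal peak may still have a weaker pooled one.

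Oxidative phosphorylation takes electrons from NADH through complex I and from succinate through complex II, passes them through complex III and cytochrome c to oxygen at complex IV, and uses the proton gradient built on the way to make ATP in complex V. Most subunits are encoded in the nucleus and must be made in step with the few encoded in mitochondrial DNA. In Drosophila many of these nuclear genes have a duplicate copy, often known for expression in the testis, whose symbol adds an L to that of the ubiquitous gene. By this naming, 24 members were L-named and 63 were not. ND-MNLL was not counted as L-named, since its letters stand for amino acids.

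The reference sequence at the summits of 7 members is shown because these carry strong peaks or a word discussed further on. They were read from the RefSeq genome of the dm6 build, on the strand of the gene, within 50 bases of the summit and trimmed so that no annotated exon is included, and they are listed by pooled signal except for ND-SGDH, which comes last. Capitals mark the word CGATA on either strand in COX6B, COX5B and COX8, and a match to the nuclear respiratory gene element in ND-SGDH.
COX5A, chr3R:11819472-11819547, plus strand: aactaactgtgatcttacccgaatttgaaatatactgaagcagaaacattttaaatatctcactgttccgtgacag
ND-ASHI, chrX:6679312-6679412, minus strand: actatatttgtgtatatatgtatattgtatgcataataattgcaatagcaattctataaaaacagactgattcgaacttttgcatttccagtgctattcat
ND-51, chr2L:6062864-6062964, minus strand: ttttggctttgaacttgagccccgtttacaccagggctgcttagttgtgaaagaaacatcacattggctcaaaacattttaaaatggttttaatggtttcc
COX6B, chrX:19744336-19744410, minus strand: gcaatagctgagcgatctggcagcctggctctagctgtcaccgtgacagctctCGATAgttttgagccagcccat
COX5B, chr2L:6557503-6557584, plus strand: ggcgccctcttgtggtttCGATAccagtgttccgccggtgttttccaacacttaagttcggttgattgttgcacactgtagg
COX8, chr3L:21539448-21539526, minus strand: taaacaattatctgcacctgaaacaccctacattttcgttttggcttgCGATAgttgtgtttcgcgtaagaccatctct
ND-SGDH, chr3L:12138617-12138717, minus strand: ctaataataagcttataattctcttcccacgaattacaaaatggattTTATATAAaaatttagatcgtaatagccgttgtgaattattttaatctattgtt

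The first comparison asked how often the members had a peak, and in which complexes. An optimal peak lay within 1 kb of 18 of the 87 members (20.7%), close to the 22.4% of all 13945 protein-coding genes. The 18 comprised 7 genes of complex I, 3 of complex II, 5 of complex IV and 3 of complex V. No gene of complex III was among them. By share of its genes, complex II led with 42.9%, followed by complex IV with 31.2%, complex V with 20% and complex I with 17.5%. The 0 of 9 of complex III allow a share of up to 33.3%, which is above the share of all genes, and 7 genes of complex II make a coarse share. This limit and the later ones after a 0 are 3 divided by the number of genes. They are rough, take genes as independent and are no test.

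Within every complex that had optimal peaks, these lay at genes with the plain symbol. None of the 24 L-named members had an optimal peak, which by the same rough limit allows a share of up to 12.5%. The values beside it are 18 of the 63 other members (28.6%) and 22.4% of all protein-coding genes. No test was made over genes. Without the L-named genes the counts were 7 of 34 in complex I, 3 of 4 in complex II, 0 of 6 in complex III, 5 of 8 in complex IV and 3 of 11 in complex V. Complex I (20.6%) and complex V (27.3%) thus lay near the share of all protein-coding genes. The 0 of 6 allow a share of up to 50%. The relaxed pooled list gave a peak to 12 of the 24 L-named members (50%) and to 59 of the 63 others (93.7%). For all members it was 71 of 87 (81.6%), and for all protein-coding genes 63.4%. Among members with a pooled peak, the strongest peak had a median signal of 47.9 for L-named genes and of 78.4 for the others, beside 79.9 over all protein-coding genes with one.

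**Figure D1:**
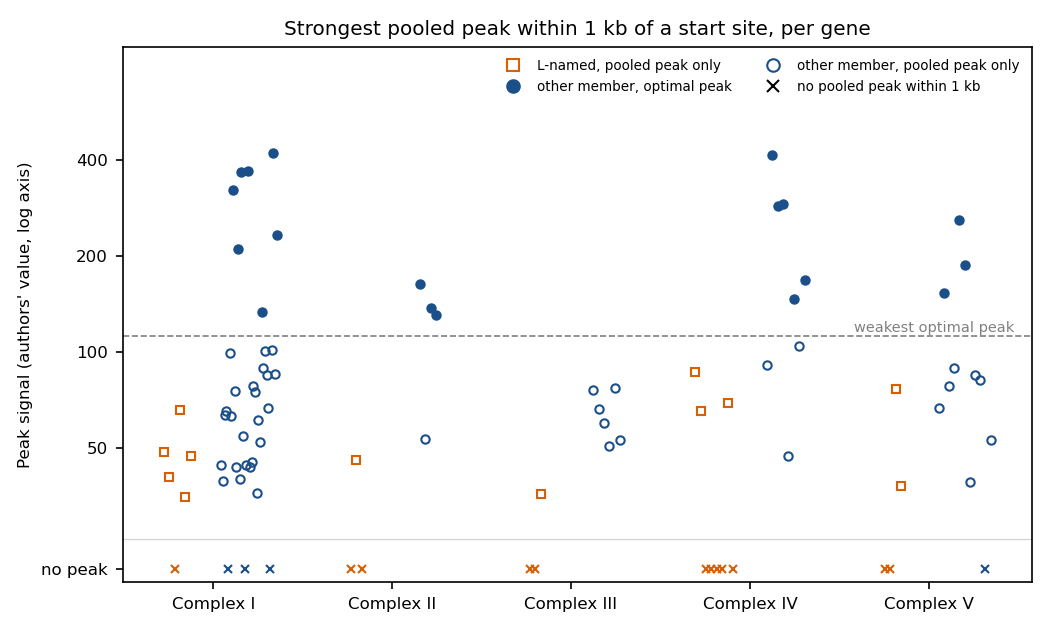
Each symbol is 1 member, placed by complex and by the signal of its strongest pooled peak within 1 kb of a start site (log axis, authors' value), with L-named genes to the left in each complex and members without such a peak in the lowest row. All 18 filled symbols, which lie above the dashed line of the weakest optimal peak at 112.0, are members without an L name, and complex III has none.

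Complex I oxidises NADH and is the largest of the complexes. Its strongest peak, and the strongest of all members, lay at ND-MWFE, a small subunit of the membrane arm (2R, 13158363 to 13158571), with a pooled signal of 420. To set replicates side by side, each replicate's signal was divided by its own median over the optimal peaks it matched within 100 bp. For ND-MWFE the relative signals of replicates 1 to 3 were 1.74, 2.90 and 2.28 (mean 2.31 ± 0.581, SD, n = 3). The replicates differed widely here, but all were above their median peak. The summit lay 9 bp from a start site of TppII, a peptidase gene, and 212 bp upstream of ND-MWFE itself.

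ND-ASHI, another membrane arm subunit (X, 6679274 to 6679486, signal 369), had relative signals of 2.08, 2.39 and 1.40 in replicates 1 to 3. Its summit lay in an intron, 244 bp upstream of a start site of ND-ASHI and 278 bp upstream of one of Fum1. Fum1 encodes fumarase of the tricarboxylic acid cycle, and the peak was also the strongest within 1 kb of it. A second optimal peak of ND-ASHI, with a signal of 121, lay 45 bp downstream of another of its start sites.

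ND-51 and ND-24 encode neighbouring subunits of the part of complex I that accepts electrons from NADH, and both had strong peaks. ND-51 (2L, 6062859 to 6062967, signal 366) had relative signals of 2.26, 1.91 and 1.64 in replicates 1 to 3, and ND-24 (X, 17632102 to 17632216, signal 321) had 1.80, 1.58 and 1.64. All 6 values lay above the median peak. The summit of ND-24 lay 96 bp downstream of the start site, in an intron. That of ND-51 lay 75 bp from the start site of CG13994 and 157 bp from its own.

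These 2 were the only called genes among the 7 nuclear core subunits that complex I shares with bacteria, a list chosen after the values were seen. The remaining 5 had pooled peaks below the optimal threshold, with signals of 99.2 at ND-20, 75.5 at ND-30, 63.1 at ND-23, 54.6 at ND-75 and 39.9 at ND-49. The ND-30 summit lay nearer to CG15812. The 2 of 7 (28.6%) and the 5 called among the other 27 complex I members with plain symbols (18.5%) both lay near the 22.4% of all protein-coding genes.

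The remaining 3 called genes of complex I had peaks nearer to the median. ND-SGDH (3L, 12138457 to 12138876, signal 233) had relative signals of 1.28 and 1.01 in replicates 1 and 2. In replicate 3 the nearest summit lay 102 bp away, just outside the matching distance. ND-SGDH had a second optimal peak of 146 at -900 bp, upstream of the start site. ND-42 (3R, 22027208 to 22027627, signal 210) had relative signals of 1.08, 1.33 and 0.904, around the median in all replicates. Its summit lay 62 bp downstream of the start site of Cchl, which encodes the lyase that attaches haem to cytochrome c, and 291 bp upstream of its own. ND-B17 (2L, 15750983 to 15751402, signal 133) had 0.722 in replicate 1 and 0.843 in replicate 3, below the median, and no matched summit in replicate 2, where the nearest lay 171 bp away.

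Below the threshold, the highest complex I members were ND-MNLL with a signal of 102 and ND-B18 with 100.9, with relative signals from 0.272 to 0.776 over the replicates. ND-19, ND-ACP and ND-MLRQ, and the L-named ND-49L, had no pooled summit within 1 kb.

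Complex II is succinate dehydrogenase, the one complex that also works in the tricarboxylic acid cycle, and none of its subunits is encoded in mitochondrial DNA. Its 3 called genes had weak peaks, all under the median optimal signal of 180.6. SdhA, the flavoprotein that oxidises succinate (2R, 19396594 to 19397013, signal 163), had relative signals of 0.794, 0.789 and 0.928 in replicates 1 to 3. These lie close together, but the summit lay 833 bp from SdhA and 32 bp from cer, so it was the most distant among the called members. SdhC and SdhD encode the membrane anchors. SdhC (3R, 11209828 to 11210247, signal 137) had 0.785 and 0.622 in replicates 1 and 2 and no match in replicate 3, where the nearest summit lay 154 bp away. SdhD (3R, 23760356 to 23760775, signal 130) had 0.749, 0.597 and 0.664, under the median in all 3. The iron-sulfur subunit gene SdhB had a pooled peak of 53.4 and its copy SdhBL one of 46.0, while SdhAL and SdhCL had none. With optimal peaks required among the strongest of every replicate but 1, the count of complex II was 1 gene without replicate 1, 1 without replicate 2 and 2 without replicate 3.

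Complex III, the cytochrome bc1 complex, had only weak pooled peaks. The strongest lay at UQCR-C2, a core subunit, with a signal of 77.4 and relative signals of 0.469 in replicate 1 and 0.504 in replicate 3, and at UQCR-11 with 75.8 and relative signals of 0.400 and 0.677 in replicates 1 and 2. UQCR-14 (66.5), UQCR-6.4 (59.9), UQCR-Q (53.0), the core subunit gene UQCR-C1 (50.7) and the L-named UQCR-6.4L (35.9) followed. None of these 7 peaks was matched in all 3 replicates. UQCR-11L and UQCR-14L had no pooled summit within 1 kb.

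Complex IV, cytochrome c oxidase, held both strong and weak optimal peaks. Among called members matched in all 3 replicates COX7B and COX5A varied least, while COX5B (SD 0.353) and COX8 (SD 0.243) varied more. SdhD (SD 0.0761) and SdhA (SD 0.0787) of complex II were close to COX5A, so low spread was not particular to complex IV. COX5A (3R, 11819478 to 11819598, signal 414) had relative signals of 2.23, 2.09 and 2.14 in replicates 1 to 3, a mean of 2.16 ± 0.0709 (SD, n = 3). The 3 replicates lay close together, all above 2. Its start site lies 20 bp from that of glo, which encodes an RNA-binding protein and is read the other way, and the summit lay nearer to COX5A.

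COX6B (X, 19744150 to 19744569, signal 291) had relative signals of 1.64, 1.39 and 1.69, and COX5B (2L, 6557324 to 6557743, signal 287) had 1.45, 1.76 and 1.05. Both were above the median in every replicate. The COX6B summit lay 25 bp upstream of its start site, and the COX5B summit 32 bp from IFT52 and 266 bp from COX5B. COX8 (3L, 21539266 to 21539685, signal 168) had 0.936, 1.15 and 0.662, on both sides of the median. COX7B (3L, 17425162 to 17425581, signal 147) had 0.744, 0.756 and 0.746, below the median with hardly any spread (mean 0.749 ± 0.00638, SD, n = 3).

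COX7C was below the optimal list with a signal of 104, the highest of all members without an optimal peak, and COX4 followed with 91.0. The relative signals of COX7C were 0.623 and 0.886 in replicates 1 and 3. In replicate 2 the nearest summit lay 2017 bp away. COX7A had 47.2 and no matched summit in any replicate. COX6AL, COX6AL2, COX6CL, COX7AL and COX7CL had no pooled summit within 1 kb.

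Complex V is the ATP synthase. ATPsynE (3R, 14326790 to 14327209, signal 258) had relative signals of 1.48, 1.33 and 1.33 in replicates 1 to 3, above the median throughout, and a second optimal peak of 166 at 798 bp downstream. ATPsynF (2R, 24599712 to 24600131, signal 187) had 0.826, 0.863 and 1.24, and its summit lay 25 bp from CG3548. ATPsynC encodes the subunit of the rotor ring (3R, 31219412 to 31219831, signal 153) and had 1.01 and 1.32 in replicates 1 and 3. In replicate 2 the nearest summit lay 116 bp away. The genes for the catalytic beta subunit and for parts of the stalks were not called. ATPsynD had a signal of 89.0, ATPsynO 84.6, ATPsynbeta 81.9, ATPsynB 66.9 and ATPsyngamma 53.0, and the ATPsynD summit lay nearer to cdi. ATPsyndelta, ATPsynCF6L and ATPsynGL had no pooled summit within 1 kb.

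**Figure D2:**
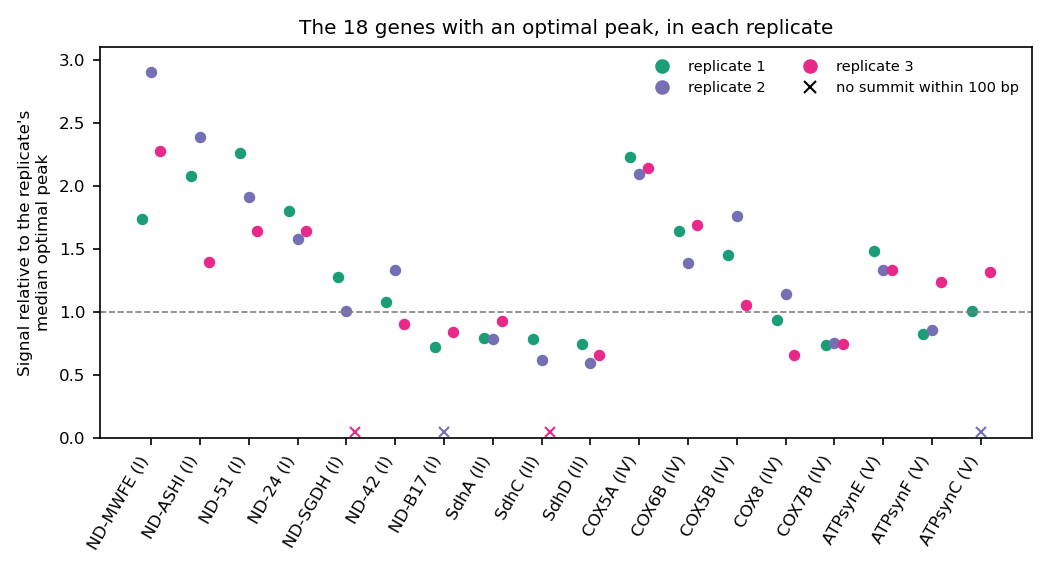
Signal of each of the 18 members with an optimal peak in replicates 1, 2 and 3, relative to the replicate's median over matched optimal peaks (dashed line at 1), ordered by complex and pooled signal, with a cross where no summit lay within 100 bp. COX5A at 2.09 to 2.23 and COX7B at 0.744 to 0.756 vary least, ND-MWFE at 1.74 to 2.90 varies more, and 4 genes lack a match in 1 replicate.

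Of the 18 peaks, 11 (61.1%) were stronger than the median optimal peak, against 56.7% of the strongest peaks of all called protein-coding genes. Their median signal was 221, against 197 over all called protein-coding genes. Of the 18, 14 were matched in all 3 replicates, while 4 missed 1 replicate. All 18 were matched in replicate 1, and 16 each in replicates 2 and 3. Their median relative signal was 1.18, 1.33 and 1.28 in replicates 1 to 3, where 1 is the median over all matched optimal peaks and not over genes' strongest ones. Over all optimal peaks, 88.7% were matched in all 3 replicates. Of the 53 members with a pooled peak alone, 10 were matched in all 3 replicates.

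The next comparison set the replicates' own lists against each other. Among the 3845 strongest peaks of each replicate, members had a peak within 1 kb for 21.8%, 25.3% and 23.0% of the genes in replicates 1 to 3. Over all protein-coding genes the shares were 22.5%, 21.3% and 22.9%. The members minus all other protein-coding genes came to 1.15 ± 2.49 percentage points (SD, n = 3), higher in 2 of 3 replicates (two-sided exact sign-flip permutation p = 0.75). This difference is smaller than its spread. Sign flips over 3 replicates cannot give a p under 0.25, so no comparison of this kind could pass 0.05.

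L-named members had no peak among these strongest in any replicate, against a mean of 32.3% ± 2.42 (SD, n = 3) for the other members. The share was lower for L-named members in 3 of 3 replicates, by a difference of -32.3 ± 2.42 points (exact sign-flip permutation p = 0.25, the smallest possible). Complex IV averaged 33.3% ± 3.61, complex II 33.3% ± 8.25, complex I 22.5% ± 2.5, complex V 22.2% ± 3.85 and complex III 3.70% ± 6.42 (SD, n = 3 each), where 1 gene of complex III had such a peak in replicate 2. Complex I minus complex IV came to -10.8 ± 4.39 points (SD, n = 3 replicates here and for the next pairs). Complex III minus complex IV came to -29.6 ± 2.81 and complex III minus complex V to -18.5 ± 2.57. Complex IV minus complex V came to 11.1 ± 0.241 and complex I minus complex III to 18.8 ± 6.88. Each of these 5 differences had the same sign in all 3 replicates and was larger than its SD. This SD is the spread over replicates with the same genes in each, and says nothing of the spread between genes. Their adjusted exact permutation p was 0.3 over the 6 pairs of complexes I, III, IV and V. Complex I minus complex V came to 0.278 ± 4.59 points, with both signs among the replicates (adjusted exact permutation p = 1). The gaps rest on few genes, since the replicates had 5, 6 and 5 of 16 genes in complex IV and 0, 1 and 0 of 9 in complex III. The complexes also differ in how many of their genes share a promoter with a neighbour, as given below. Whether the gaps remain between genes of like promoters was not tested.

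**Figure D3:**
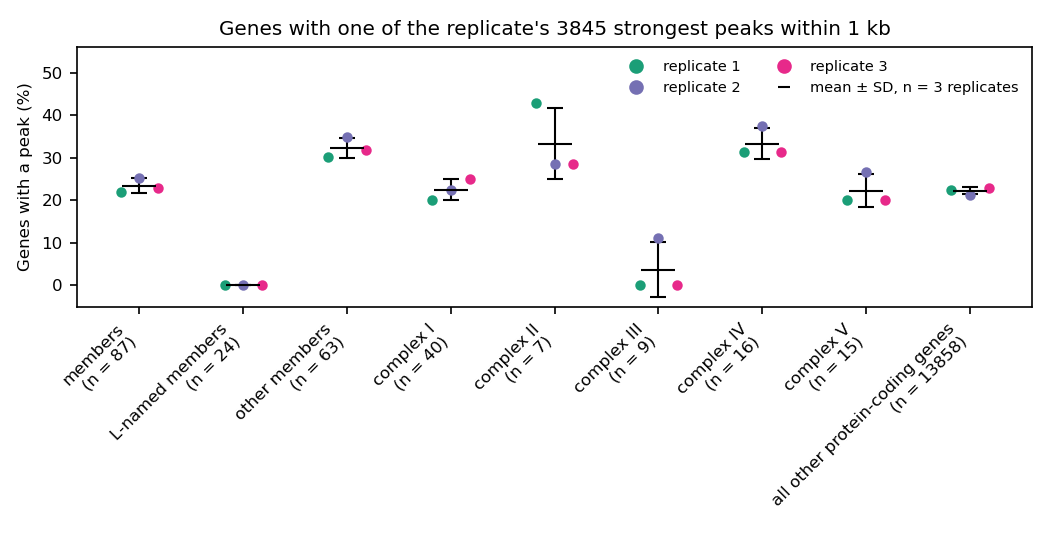
Share of genes with one of a replicate's 3845 strongest peaks within 1 kb of a start site, per replicate (points) with mean ± SD (bars, n = 3 replicates), for members, subsets of members and all other protein-coding genes. L-named members are at 0 in all replicates, while members as a whole, at 21.8 to 25.3%, lie beside all other protein-coding genes.

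The L-named genes could be set beside the gene whose name they extend in 20 cases, over 18 different plain genes. In 6 of these the plain gene had an optimal peak and the copy did not. They were ND-24L (40.5) beside ND-24 (321), ND-51L1 (65.6) and ND-51L2 (35.0) beside ND-51 (366), COX5BL (65.4) beside COX5B (287), and SdhAL and SdhCL, which had no pooled peak, beside SdhA and SdhC. In 11 cases both had a pooled peak, and the plain gene had the higher signal in 10. The exception was COX7AL2 with 69.4 beside COX7A with 47.2. Nearly equal were COX4L with 86.3 and COX4 with 91.0, and ATPsynbetaL with 76.6 and ATPsynbeta with 81.9, but these last summits lay nearer to CG13074 and CG11076. In the other 9 cases the plain gene alone had a pooled peak.

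The L-named genes' pooled summits lay 10 to 929 bp from the start site, with a median of 524 bp, and 9 of 12 were in coding sequence. Pooled summits of the other members without an optimal peak lay at 5 to 999 bp, with a median of 148 bp, and 15 of 41 were in coding sequence. Over all 5720 protein-coding genes with only a pooled peak the median was 325 bp, and 34.8% were in coding sequence. The ranges of the members overlap, and the difference was not tested. The 18 optimal summits were at a median of 103 bp, none of them in coding sequence, and 17 lay within 300 bp. These were 14 upstream and 4 downstream of the start site. Over all protein-coding genes with an optimal peak, 83.6% of summits were upstream and the median distance was 144 bp. At the edge of the distance rule, the nearest pooled summit lay at 856 bp in ND-B14.5B (signal 74.8) and 929 bp in UQCR-6.4L (35.9), just inside, and at 1025 bp in ND-MLRQ (50.4) and 1087 bp in SdhAL (41.1), just outside. The strongest pooled summit of ND-18, with a signal of 65.2, lay at 999 bp.

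**Figure D4:**
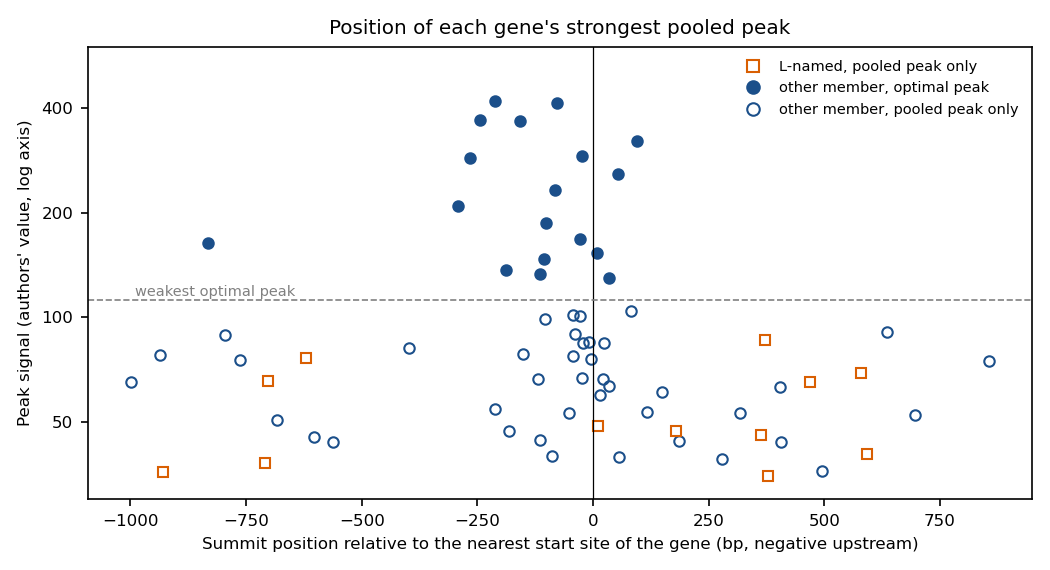
Position of each member's strongest pooled summit relative to its nearest start site (bp, negative upstream) against its signal (log axis, authors' value), for the 71 members with one, the dashed line marking the weakest optimal peak at 112.0. Of the 18 optimal peaks (filled circles) 17 lie within 300 bp of the start site, mostly upstream. Peaks outside the optimal list lie on both sides, with 4 upstream and 8 downstream for L-named genes (squares). For other members (open circles) these are 24 and 17.

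Many of these promoters are shared. A start site of another protein-coding gene on the opposite strand lay within 1 kb upstream of 4 of 24 L-named members (16.7%), of 40 of 63 other members (63.5%) and of 36.2% of all protein-coding genes. Of such head-to-head genes 14 of 44 members had an optimal peak (31.8%), against 40.2% of all head-to-head genes. Of members with no such partner 4 of 43 had one (9.30%), against 12.3% of all such genes. These 4 were ND-B17, SdhA, SdhD and ATPsynC. Among members with plain symbols the shares were 14 of 40 (35%) with a partner and 4 of 23 (17.4%) without. Among L-named members 0 of 4 with a partner and 0 of 20 without had an optimal peak. Whether L-named genes differ from genes of like promoters was not tested. By complex, head-to-head genes made up 55% of complex I, 28.6% of II, 22.2% of III, 50% of IV and 66.7% of V. Without the L-named genes these were 64.7%, 25%, 33.3%, 87.5% and 72.7% in complexes I to V. In 12 of the 18 called members the summit lay nearest to the member among protein-coding genes. In the other 6, ND-42, ND-51, ND-MWFE, SdhA, COX5B and ATPsynF, another gene was nearer. Over all called protein-coding genes the summit was nearest to the gene itself in 65.9%. Which gene such a peak acts on was not tested.

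Words were sought on both strands within 50 bases to either side of the 18 optimal summits. The forkhead word GTAAACA was in none of them and in 3.56% of all 3845 optimal peaks. Over the strongest peaks of all called protein-coding genes (below, called genes) it was in 3.71%. Called genes are the closer match to the 18, since there too a gene's strongest peak within 1 kb was taken. Within 100 bases to either side the forkhead word was in 1, at SdhD, in 6.81% of all and in 7.65% over called genes. The nuclear respiratory gene element, an element described at Drosophila respiratory genes and searched as TTACATAA, TTACGTAA, TTATATAA and TTATGTAA, was in 1, ND-SGDH, and in 1.59% of all. Over called genes it was in 1.41%. TATCGATA, the word of the DNA replication-related element (DRE), was in none, against 3.09% of all and 5.63% over called genes. Within 100 bases it was in 1, at ATPsynE, against 5.54% and 10.3%. GGTCACAC of Ohler's core promoter motif 1 (1.74% of all optimal peaks), GAGAGAG of GAGA factor (1.38%) and CCGGAAG of ETS factors (0.520%) were also in none. Over called genes these were in 2.78%, 1.09% and 0.672%, and within 100 bases they were still in none of the 18. CAGCTG, an E-box, was in 2, SdhA and SdhD, in 4.40% of all and in 5.41% over called genes. Within 100 bases it was in 4 (22.2%), with ND-42 and ATPsynE, against 10.1% of all and 13.2% over called genes. CGATA, known from sites of the insulator protein BEAF-32 and also part of TATCGATA, was looked for after the sequences had been seen. It was in 7 of 18 (38.9%), COX5B, COX6B and COX8 among them, against 20.5% of all optimal peaks and 28.6% of the strongest peaks of all called protein-coding genes. Within 100 bases CGATA was in 10 of 18 (55.6%), against 33.6% and 44.7%.

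In the promoters, taken as 250 bp before to 50 bp after the gene start, the DRE word was in 0 of 24 L-named members, in 0 of the 18 with an optimal peak and in 9 of the 45 other members without one (20%). It was in 9.36% of all protein-coding promoters and in 15.3% of those with an optimal peak. The 9 included COX4, COX7A, UQCR-14 and ND-MNLL. GGTCACAC was in 1 of 24 L-named promoters, in 6 of the 18 (33.3%) and in 9 of the 45 (20%), against 7.70% of all protein-coding promoters and 12.4% of those with an optimal peak. The 6 were ND-B17, ND-MWFE, COX5A, COX5B, COX7B and ATPsynC. The forkhead word was in 2 of the 18 promoters of called members (11.1%), against 10.7% of those of all called protein-coding genes. The E-box CAGCTG was in 4 of the 18 (22.2%), against 22.0%, and the nuclear respiratory gene element in 2 of the 18 (11.1%), against 5.22%. GAGAGAG and CCGGAAG were in 0 of the 18, against 6.14% and 1.06%, and CGATA was in 14 of the 18 (77.8%), against 57.8%. A match is a description of the letters and does not show a site, and with 18 genes each gene is 5.56 points.

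Genes of the same pathway with other symbols extended the picture of the complexes. Of 9 listed subunit genes, cytochrome c genes included, 3 were called, beside 22.4% of all protein-coding genes. They were blw, the alpha subunit of the ATP synthase, with a signal of 570 and relative signals of 2.32, 3.47 and 3.63, Cyt-c-d with 406 and levy, a complex IV subunit, with 261 and a summit nearer to wmd. The blw peak was stronger than that of any member. ATPsynbeta, whose protein pairs with that of blw, had a pooled peak of 81.9, with a summit nearer to CG11076. The Cyt-c-d summit lay nearer to CG31808, and Cyt-c-p, the other cytochrome c gene, had a pooled peak of 106. The complex III genes RFeSP, Cyt-c1 and ox were not called, which made 0 of 9 plain complex III subunit genes, beside 6 of 10 in complex IV and 4 of 13 in complex V. The 0 of 9 again allow a share of up to 33.3%, above that of all protein-coding genes.

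The next lists are short, and their counts stand beside the 22.4% of all protein-coding genes called, with nothing read from them as shares. Of 6 matched genes for assembly factors 2 were called. CIA30, needed to assemble complex I, had a signal of 1305 and relative signals of 7.27, 6.88 and 6.56, far above every member, and Cox17, a copper chaperone of complex IV, had 177. Of 11 tricarboxylic acid cycle genes 5 were called, mAcon1 (471), Fum1 (369), Idh3b (266), Idh3a (153) and Idh3g (145), so that the 3 genes of the NAD-dependent isocitrate dehydrogenase were all among them, though the Idh3a summit lay 17 bp from CoRest. Of 7 regulators of respiratory or mitochondrial genes 3 were called, PolrMT (130), srl (125) and mtTFB1 (121). The mtTFB1 summit lay nearer to CG11658. TFAM, ewg and Ets97D had pooled peaks from 79.5 to 95.9, and mtTFB2 one of 51.1.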

How the data were processed

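Per the deposited readme files, the authors made a relaxed peak list for each replicate and for the pooled replicates, against a control alignment not used here, and thresholded the optimal list by the irreproducible discovery rate. The peak signal and the −log10 q value are the authors' deposited values, and genes were compared by the signal alone. Which peak caller, threshold and depth lay behind them is not stated by the labels or those readme files. The dm3 lists were not used. Gene models were those of Ensembl release 115 (BDGP6.54), the dm6 assembly. The strongest summit within 1 kb of any start site was taken for each gene, and replicate summits were matched within 100 bp. Shares in replicates were compared by two-sided exact sign-flip permutation tests over 3 replicates with Benjamini-Hochberg adjustment over 6 pairs. The assignment was tested on simulated peaks. Allowed shares at 0 are 3 divided by the number of genes, a rough limit that takes genes as independent and is coarsest for few genes. Every member with an optimal peak is named, with the 2 strongest other members per complex and those without a pooled peak. Also named are the members just inside and outside 1 kb and the called genes of the other pathway lists, in which 3 assembly factor symbols were not matched. A few further members below the threshold (the complex I core, complex III and ATP synthase genes) were named after their values were seen. Members and lists were chosen with earlier results of these data known. Alternatives were the distance, the start sites, the nearest gene, the list threshold, the matching distance, the window for words and leaving out each replicate. Analyses used Python 3.11.15 and numpy 2.4.6.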

Additional observations from a re-analysis of the deposited data

How the results depend on the processing

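Within 5 kb of a start site 42 members had an optimal peak, 18 in complex I, 4 in complex III, 9 in complex IV, 7 in complex V and 4 L-named (members 48.3%, all protein-coding genes 40.2%). Among the 1922 strongest optimal peaks 11 members had one (12.6%, against 12.7% of all protein-coding genes), with 0 in complex II and 3 in complex IV. In the whole pooled list 71 had one, with 36, 5, 7, 11 and 12 in complexes I to V and 12 L-named. Counting peaks nearest to the member left 4 in complex I. Leaving out 1 replicate gave 12 to 15 members (13.8 to 17.2%, against 15.3 to 16.5% of all protein-coding genes), and 1 to 2 genes of complex II. These sets of optimal peaks, matched among the 3845 strongest of both remaining replicates, held 2411 to 2655 peaks. The other 44 counts of genes under an alternative stayed within 1.5 times, those at 0 included. L-named genes stayed at 0 in all settings but 5 kb and the pooled list. The settings where they stayed at 0 only take peaks or start sites away. A count of 0, as for L-named genes and complex III, could not change in them. All 36 values of relative signal under another matching rule moved by less than 1 SD. With the 1922 strongest peaks per replicate the shares averaged 12.3% for members and 12.7% for all other protein-coding genes, and with whole replicate lists 73.9% and 62.1%. No pairing between conditions was possible because there was only 1 group, and groups of genes were compared within each replicate. Unknown depth limits what the absence of a peak shows.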

Other observations

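Beyond 1 kb, 24 members without an optimal peak at their start site had one between 1 and 5 kb away. Within 5 kb as a whole, 48.3% of members and 40.2% of all protein-coding genes had an optimal peak. For 19 of the 24 the nearest protein-coding gene was another one within 300 bp of the summit. The like share over all protein-coding genes was not counted. The strongest had a signal of 1121 and lay 2847 bp from ND-B22, a complex I gene, but 62 bp from CG6565. A peak of 863 lay 2790 bp from COX5BL and 68 bp from Trmt6, and one of 670 lay 4171 bp from UQCR-6.4 and 119 bp from POSH. A peak of 913 stood 4460 bp upstream of COX7AL2 and 3794 bp from CG31668, far from both. In 2 cases, ND-B14.7 at 2600 bp and COX7C at 1924 bp, the member itself was the nearest protein-coding gene. The COX7C peak was also that of COX7CL, at 3919 bp, and the peak 1758 bp from ATPsyndelta lay 1029 bp from Ypel. All 4 complex III genes reached within 5 kb (UQCR-11, UQCR-6.4, UQCR-C1 and UQCR-C2) owed this to a summit nearer to another gene, at 97 to 157 bp from it.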
